A study of Mus musculus with 12 samples.

Results

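The genes described here are 36 macrophage marker genes, followed across cultures of mouse vascular smooth muscle cells. They were chosen by gene symbol as a list of macrophage and myeloid identity genes, and all 36 were found among the 55487 genes of the deposited table. The list was drawn up with it already known that these genes were lower in the cultures labelled knockout, so their direction between genotypes is a description of the list and not an independent result. CPM is the reads of a gene per 1000000 reads of its library. A gene was tested where 3 or more of the 12 libraries held 1 CPM or more of it, which 28 of the 36 did, among 14202 genes in all. Of those 28, 11 passed this filter through WT libraries, with fewer than 3 labelled KO libraries at 1 CPM, so the filter favoured genes that were higher in WT, and counts and medians over the 28 are descriptions. The other 8 genes, Pf4, Aif1, Itgam, Cd52, Cd74, H2-Aa, H2-Ab1 and H2-Eb1, did not pass this filter and are given by their reads.

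Messenger RNA was sequenced in 4 groups of 3 libraries each. They were cells labelled as from Tigar knockout (KO) mice with PDGF-BB, cells from wild-type (WT) mice with PDGF-BB, untreated cells labelled KO and untreated WT cells. PDGF-BB, a growth factor that makes smooth muscle cells divide and migrate, was given at 40 µg/L for 6 h. All cultures were primary cells of mice 4 to 6 weeks of age, used at passages 4 to 6. How the Tigar allele was made is not in the labels. Nor do they tie the 3 libraries of a group to different mice or cultures, and each p-value here measures no more than the spread over the libraries, which may be technical. Tigar, the targeted gene, stood at 15.2 ± 0.888 CPM in labelled KO and 11.9 ± 0.659 CPM in WT cells with PDGF-BB, and at 11.2 ± 1.12 CPM in labelled KO and 7.5 ± 0.955 CPM in WT cells without it (SD, n = 3 each). It was thus higher and not lower in the libraries labelled KO (log2 differences of 0.33 and 0.52, adjusted p = 0.0292 and 0.00209). Every direction between genotypes given here follows the labels. The cultures carried smooth muscle markers, with 12 of them summing to 3164 to 6437 CPM a library. Acta2 (1133 to 2863 CPM) and Cald1 (1223 to 2599 CPM) made up most of that sum. Others of the 12 were low, with Tagln at 2.98 to 7.12 CPM, Myocd at 0.182 to 3.21 CPM and Des at 0.356 to 0.953 CPM. These genes were named after their values were seen.

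Macrophages are phagocytes of the myeloid lineage. They depend on the receptor Csf1r for survival, on the transcription factor PU.1 (the product of Spi1) for their identity, and on lysosomal enzymes, complement and Fc receptors for clearing particles. In the artery wall they lie among smooth muscle cells and gather lipid in plaques, and smooth muscle cells in plaques can take up some macrophage marker genes. In RNA from a whole culture, fewer macrophages and less of this RNA per cell cannot be told apart.

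Summed over the 36 genes, the libraries held 63.0, 60.0 and 54.7 CPM in labelled KO against 251, 211 and 182 CPM in WT with PDGF-BB. Without PDGF-BB the sums were 86.1, 62.1 and 74.7 CPM in labelled KO against 262, 247 and 245 CPM in WT. These sums rest on 876 to 1366 reads a library in labelled KO and 2972 to 4135 in WT with PDGF-BB, and on 928 to 1343 in labelled KO and 4105 to 4849 in WT without it. No labelled KO library reached the lowest WT library, and the mean labelled KO sum was 0.276 of the WT sum with PDGF-BB and 0.296 of it without. Lyz2 alone made up 19.9 to 37.0% of the sum, and without it the ratios were 0.328 in both treatments.

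**Figure D1:**
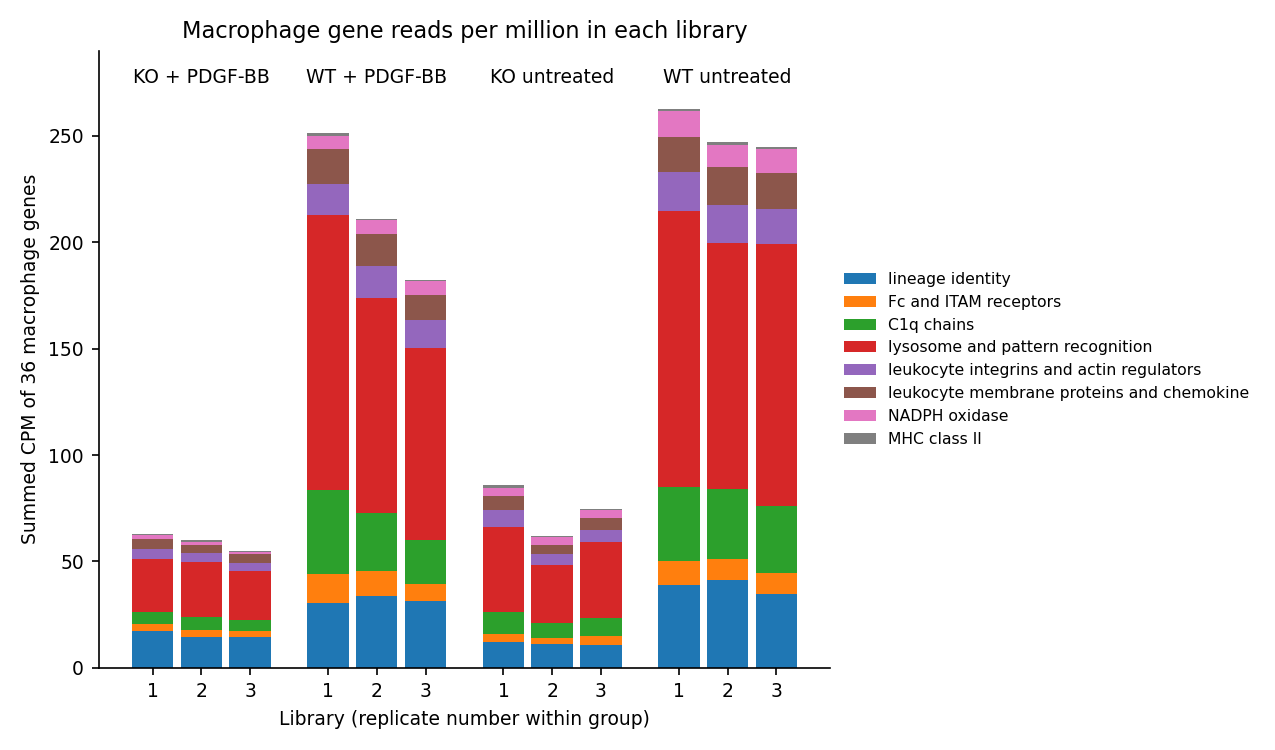
Summed CPM of the 36 macrophage genes in each of the 12 libraries (y axis, CPM; x axis, replicate number within the group), stacked by role of the genes. The 6 labelled KO libraries sit between 54.7 and 86.1 CPM and the 6 WT libraries between 182 and 262 CPM, and lysosome and pattern recognition genes, with Lyz2 among them, are the tallest part of each bar.

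Between labelled KO and WT cells without PDGF-BB, 27 of the 28 tested macrophage genes were lower in labelled KO and none was higher at an adjusted p under 0.05 (limma-trend on log2(CPM + 1), Benjamini-Hochberg adjustment over all 14202 genes). Of all genes tested, 34% were called, 24.8% lower in labelled KO and 9.15% higher. The exception was Cx3cr1. The median log2 difference of the 28 genes was -1.11, against -0.13 over all genes tested, and the ratio of mean CPM ran from 0.147 for Adgre1 to 0.583 for Cx3cr1, with a median of 0.312. For the same 27 genes the labelled KO and WT libraries did not overlap, which held, in the lower direction, for 40.5% of all genes tested.

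With PDGF-BB, 25 of the 28 genes were lower in labelled KO than in WT and none was higher, while 37.2% of all genes tested were called, 26.6% lower and 10.6% higher. Ptprc, Cx3cr1 and Pld4 did not pass the test. The median log2 difference was -1.19, against -0.14 over all genes tested, and the ratio of mean CPM ran from 0.0802 for Ncf1 to 0.913 for Ptprc, with a median of 0.288. The libraries of 26 genes did not overlap, against 35.9% of all genes tested in that direction. Scaling by TMM, a method that sets most genes equal between libraries, moved the median of all genes up by 0.12 without PDGF-BB and by 0.094 with it. It left 1930 genes higher and 2034 lower in place of 1300 and 3523 without PDGF-BB, and 1928 higher and 2139 lower in place of 1507 and 3777 with it. Under TMM the macrophage genes still had medians of -1.13 with PDGF-BB and -1.0 without.

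**Figure D2:**
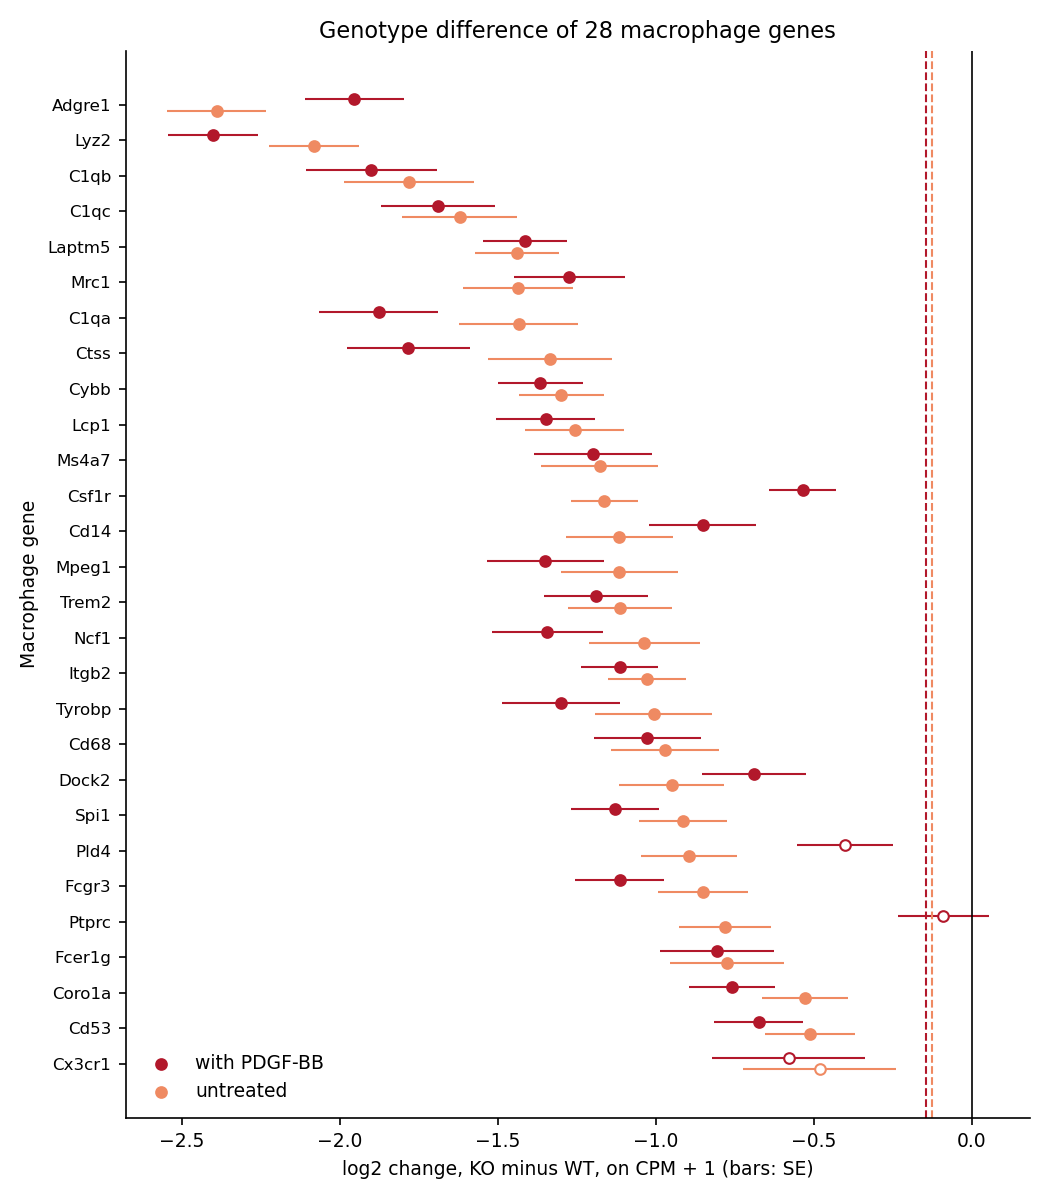
Log2 difference of labelled KO minus WT on CPM + 1 for the 28 tested macrophage genes (x axis), with PDGF-BB (dark points, upper of each pair) and without it (light points, lower of each pair); bars are standard errors, open points did not pass the test, and dashed lines mark the median of all genes tested. All points lie left of 0, from -2.40 for Lyz2 with PDGF-BB to -0.09 for Ptprc with PDGF-BB, and Csf1r and Ptprc stand closer to 0 with PDGF-BB than without.

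Lineage genes came first. Adgre1, which encodes the adhesion receptor F4/80 that defines tissue macrophages in the mouse (ENSMUSG00000004730, chromosome 17, 57358691 to 57483527, plus strand in GRCm38.p6), stood at 2.49, 1.80 and 1.75 CPM in labelled KO against 10.1, 11.5 and 10.3 CPM in WT with PDGF-BB. Without PDGF-BB, Adgre1 stood at 2.88, 3.08 and 1.72 CPM in labelled KO against 17.8, 19.0 and 15.5 CPM in WT. Its labelled KO libraries lay far under the WT libraries in both treatments, with log2 differences of -1.96 (SE 0.16, adjusted p = 6.91e-07) with PDGF-BB and -2.39 (SE 0.16, adjusted p = 1.25e-07) without. Spi1 (ENSMUSG00000002111, chromosome 2, 91082390 to 91115756, plus strand), the gene of PU.1, stood at 0.369, 0.340 and 0.187 CPM in labelled KO against 2.00, 1.73 and 1.78 CPM in WT with PDGF-BB. Without PDGF-BB, Spi1 stood at 0.393, 0.267 and 0.723 CPM in labelled KO against 1.76, 1.88 and 1.55 CPM in WT. No labelled KO library reached 1 CPM of Spi1 and every WT library exceeded it, and the differences were -1.13 (SE 0.14, adjusted p = 3.65e-05) with PDGF-BB and -0.91 (SE 0.14, adjusted p = 0.000219) without.

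Csf1r encodes the receptor for the growth factors CSF1 and IL-34. It stood at 11.8, 10.2 and 10.2 CPM in labelled KO against 15.3, 16.6 and 15.9 CPM in WT with PDGF-BB. Without PDGF-BB, Csf1r stood at 4.78, 5.62 and 6.06 CPM in labelled KO against 14.1, 14.2 and 12.3 CPM in WT. The groups did not overlap in either treatment, but the gap was smaller with PDGF-BB, at -0.54 (SE 0.11, adjusted p = 0.00172), than without it, at -1.16 (SE 0.11, adjusted p = 2.38e-06). Ptprc encodes CD45, a phosphatase on all nucleated blood cells, and stood at 2.49, 1.95 and 1.75 CPM in labelled KO against 2.61, 2.26 and 1.90 CPM in WT with PDGF-BB. Without PDGF-BB, Ptprc stood at 2.42, 1.54 and 1.89 CPM in labelled KO against 3.78, 4.28 and 4.05 CPM in WT. Its labelled KO libraries were lower without PDGF-BB, with a difference of -0.78 (SE 0.14, adjusted p = 0.000953). With PDGF-BB the groups overlapped and the difference was -0.09 (SE 0.14, adjusted p = 0.642), with the sign turned in DESeq2 (0.015) and in edgeR without a filter (0.035). Cx3cr1, the fractalkine receptor, stood at 0.277, 0.292 and 0.625 CPM in labelled KO against 0.547, 1.53 and 1.29 CPM in WT with PDGF-BB. Without PDGF-BB, Cx3cr1 stood at 1.77, 0.535 and 0.50 CPM in labelled KO against 1.51, 1.99 and 1.31 CPM in WT. Here the groups overlapped in both treatments, with differences of -0.58 (SE 0.24, adjusted p = 0.0750) with PDGF-BB and -0.48 (SE 0.24, adjusted p = 0.144) without. The overlap without PDGF-BB came from replicate 1 of untreated labelled KO, and leaving that library out gave -0.77 (adjusted p = 0.0152). Leaving out replicate 1 of WT with PDGF-BB gave -0.79 with PDGF-BB (adjusted p = 0.0107), and leaving out the untreated labelled KO library, through the shared spread, took the difference with PDGF-BB past the threshold too (adjusted p = 0.0308). The Cx3cr1 difference with PDGF-BB was also called in edgeR without a filter (-1.38, adjusted p = 0.0106).

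PU.1 binds purine-rich sites with a GAGGAA core, and many myeloid promoters hold such sites near their start. Promoter windows from 250 bases before to 50 bases after the start were found in RefSeq (GRCm38.p6) for 26 of the 36 genes. The longer motif GAGGAAGT, searched on both strands, was in 5 of these 26 windows (C1qc, Cd53, Ctss, Pf4 and Pld4; 19.2%), against 3.69% of 27025 genes with a window. The core GAGGAA, which every GAGGAAGT contains, was in 17 of 26 (65.4%), against 31.3% of all. These matches are descriptions of letters in a window and no test was made. Below are the 4 of the 5 with the highest CPM, to show where the motif lies beside genes that were lower in labelled KO. Each line runs 5′ to 3′ on the gene's strand from 230 bases before the start to 20 bases after it, with capitals for GAGGAAGT or, where the motif is on the other strand, its reverse complement ACTTCCTC. The windows are C1qc at chr4:136892895-136893144, minus strand, Ctss at chr3:95526556-95526805, plus strand, Cd53 at chr3:106790130-106790379, minus strand, and Pld4 at chr12:112760425-112760674, plus strand.
C1qc: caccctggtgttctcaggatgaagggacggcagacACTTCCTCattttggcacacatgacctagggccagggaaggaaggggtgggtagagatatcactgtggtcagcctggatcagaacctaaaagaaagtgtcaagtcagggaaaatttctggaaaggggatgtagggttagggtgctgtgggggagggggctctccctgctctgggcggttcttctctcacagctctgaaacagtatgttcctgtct
Ctss: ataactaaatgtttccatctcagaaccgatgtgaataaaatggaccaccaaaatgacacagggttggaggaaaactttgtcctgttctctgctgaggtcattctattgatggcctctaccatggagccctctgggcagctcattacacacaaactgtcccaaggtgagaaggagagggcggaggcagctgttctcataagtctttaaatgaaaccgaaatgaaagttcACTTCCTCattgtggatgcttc
Cd53: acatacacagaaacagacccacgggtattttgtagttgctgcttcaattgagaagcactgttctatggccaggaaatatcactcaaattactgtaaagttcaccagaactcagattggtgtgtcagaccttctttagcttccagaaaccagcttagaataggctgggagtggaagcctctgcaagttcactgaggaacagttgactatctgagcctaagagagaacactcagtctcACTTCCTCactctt
Pld4: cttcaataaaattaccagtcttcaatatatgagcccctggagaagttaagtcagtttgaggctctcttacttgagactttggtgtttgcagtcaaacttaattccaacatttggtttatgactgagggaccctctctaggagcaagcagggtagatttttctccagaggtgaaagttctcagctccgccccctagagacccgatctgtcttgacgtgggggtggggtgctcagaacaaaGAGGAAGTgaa

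The motif lies at bases -195 to -188 from the start in C1qc, across the start at -2 to 6 in Ctss, and just after it at 7 to 14 in Cd53 and 10 to 17 in Pld4. These 4 genes did not move alike. C1qc and Ctss were lower in labelled KO in both treatments by more than the median of the 28 genes, Cd53 by less, and Pld4 passed the test without PDGF-BB and not with it.

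The 3 chains of C1q, the complement protein that macrophages themselves secrete and that tags debris for uptake, lie side by side on chromosome 4 between 136880129 and 136898803. C1qa stood at 2.17, 2.09 and 1.5 CPM in labelled KO against 14.2, 8.37 and 7.54 CPM in WT with PDGF-BB. Without PDGF-BB, C1qa stood at 3.60, 2.67 and 2.89 CPM in labelled KO against 9.26, 10.7 and 9.77 CPM in WT. C1qb stood at 1.80, 1.61 and 2.00 CPM in labelled KO against 12.5, 9.5 and 7.05 CPM in WT with PDGF-BB, and 3.53, 1.87 and 2.72 CPM in labelled KO against 14.8, 10.1 and 10.2 CPM in WT without it. C1qc, whose promoter is shown above, stood at 1.98, 2.43 and 1.94 CPM in labelled KO against 12.9, 9.11 and 6.19 CPM in WT with PDGF-BB. Without PDGF-BB, C1qc stood at 3.08, 2.88 and 3.00 CPM in labelled KO against 10.7, 11.9 and 11.2 CPM in WT. In all 3 genes the groups did not overlap, and each was highest with PDGF-BB in replicate 1 of WT. The log2 differences for C1qa, C1qb and C1qc were -1.88, -1.90 and -1.69 with PDGF-BB and -1.43, -1.78 and -1.62 without, with adjusted p of 6.47e-05 or less. Summed, the 3 chains stood at 5.84 ± 0.359 CPM in labelled KO against 29.1 ± 9.52 CPM in WT with PDGF-BB, and at 8.75 ± 1.40 CPM against 32.9 ± 1.82 CPM without it (SD, n = 3 each).

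Of the lysosome and pattern recognition genes, Lyz2 was the most abundant of all 36. It encodes the lysozyme of macrophages and other myeloid cells, which cuts bacterial walls (ENSMUSG00000069516, chromosome 10, 117277331 to 117282321, minus strand), and stood at 12.5, 12.9 and 12.8 CPM in labelled KO against 93.0, 67.5 and 58.6 CPM in WT with PDGF-BB. Without PDGF-BB, Lyz2 stood at 19.6, 15.3 and 20.5 CPM in labelled KO against 85.6, 76.9 and 80.1 CPM in WT. The highest labelled KO library lay under the lowest WT library by a wide margin in both treatments. The differences were -2.40 (SE 0.14, adjusted p = 4.91e-08) with PDGF-BB and -2.08 (SE 0.14, adjusted p = 1.74e-07) without. Its near-identical neighbour Lyz1 had 9 reads over all 12 libraries together.

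Mpeg1 encodes perforin-2, a pore-forming protein of phagosomes, and stood at 3.96, 3.75 and 2.81 CPM in labelled KO against 8.62, 11.8 and 11.1 CPM in WT with PDGF-BB. Without PDGF-BB, Mpeg1 stood at 8.11, 4.28 and 6.17 CPM in labelled KO against 16.0, 13.0 and 13.7 CPM in WT. Cd14, the co-receptor for lipopolysaccharide, stood at 3.13, 3.31 and 2.87 CPM in labelled KO against 9.35, 5.25 and 5.27 CPM in WT with PDGF-BB, and 3.21, 2.61 and 2.84 CPM in labelled KO against 7.56, 6.98 and 7.69 CPM in WT without it. Mrc1, the mannose receptor CD206 of resident and alternatively activated macrophages, stood at 1.71, 2.24 and 1.56 CPM in labelled KO against 5.16, 5.98 and 6.38 CPM in WT with PDGF-BB, and 3.34, 1.87 and 2.11 CPM in labelled KO against 8.0, 6.72 and 10.1 CPM in WT without it. Labelled KO libraries lay under all WT libraries for each of these 3 genes in both treatments. Their differences were -1.35, -0.85 and -1.27 with PDGF-BB and -1.12, -1.12 and -1.44 without, with adjusted p of 0.00172 or less.

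Cd68, a glycoprotein of late endosomes and lysosomes, stood at 1.71, 2.29 and 1.19 CPM in labelled KO against 5.53, 4.05 and 3.98 CPM in WT with PDGF-BB. Without PDGF-BB, Cd68 stood at 2.62, 1.74 and 2.34 CPM in labelled KO against 5.29, 4.79 and 5.84 CPM in WT. Ctss, the protease cathepsin S, stood at 0.507, 0.827 and 0.812 CPM in labelled KO against 6.01, 5.12 and 3.74 CPM in WT with PDGF-BB. Without PDGF-BB, Ctss stood at 2.29, 0.936 and 1.11 CPM in labelled KO against 4.98, 5.40 and 4.65 CPM in WT. Pld4, an endolysosomal exonuclease, stood at 1.01, 0.535 and 0.562 CPM in labelled KO against 1.34, 1.33 and 1.04 CPM in WT with PDGF-BB, and 0.654, 0.401 and 0.556 CPM in labelled KO against 2.14, 2.04 and 1.43 CPM in WT without it. Cd68 and Ctss were lower in labelled KO in both treatments (-1.03 and -1.78 with PDGF-BB, -0.97 and -1.33 without), with groups that did not overlap. For Pld4 the groups did not overlap either, but only the difference without PDGF-BB, -0.89 (SE 0.15, adjusted p = 0.000502), passed the test, and with PDGF-BB it was -0.40 (SE 0.15, adjusted p = 0.0530). It passed with 1 library left out, namely replicate 1 of labelled KO with PDGF-BB (adjusted p = 0.0281), replicate 3 of WT with PDGF-BB (adjusted p = 0.0448) or replicate 3 of untreated WT (adjusted p = 0.0497), and with the replicate number as a block (adjusted p = 0.0433). In limma-trend it also passed with a filter at 0.5 CPM (adjusted p = 0.0496) and with a pseudocount of 0.5 (adjusted p = 0.0498). These were 6 of 23 alternative settings. It did not pass in the rest, among them edgeR, DESeq2, TMM scaling and quantile normalization, and the adjusted p reached 0.332.

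The Fc and immunoreceptor genes encode receptors and their adaptors: Trem2 signals through Tyrobp (DAP12), and Fcgr3 through Fcer1g (the common Fc gamma chain), and both adaptors carry the signalling motif in the membrane complex. All 4 were lower in labelled KO in both treatments. Trem2, a lipid receptor, stood at 1.20, 1.41 and 0.875 CPM in labelled KO against 4.92, 4.12 and 2.88 CPM in WT with PDGF-BB. Without PDGF-BB, Trem2 stood at 1.24, 0.802 and 0.890 CPM in labelled KO against 3.59, 3.06 and 3.16 CPM in WT. Tyrobp stood at 0.461, 0.292 and 0.687 CPM in labelled KO against 3.46, 2.92 and 1.72 CPM in WT with PDGF-BB, and 0.393, 0.602 and 0.890 CPM in labelled KO against 2.52, 2.04 and 2.20 CPM in WT without it, and no labelled KO library reached 1 CPM of it. Fcgr3, a receptor for immune complexes, stood at 0.691, 0.730 and 0.50 CPM in labelled KO against 2.67, 2.86 and 2.15 CPM in WT with PDGF-BB, and 1.05, 0.736 and 1.11 CPM in labelled KO against 2.58, 2.09 and 2.98 CPM in WT without it. Fcer1g stood at 0.645, 0.730 and 0.687 CPM in labelled KO against 2.67, 2.06 and 1.29 CPM in WT with PDGF-BB, and 1.18, 0.669 and 0.945 CPM in labelled KO against 2.46, 2.75 and 1.73 CPM in WT without it. None of the 4 overlapped between genotypes, and the differences for Trem2, Tyrobp, Fcgr3 and Fcer1g were -1.19, -1.30, -1.11 and -0.81 with PDGF-BB and -1.11, -1.01, -0.85 and -0.77 without (adjusted p of 0.0047 or less).

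Genes of leukocyte adhesion and of the actin cortex followed the same order. Itgb2, the beta chain CD18 of the leukocyte integrins, stood at 1.01, 0.681 and 0.750 CPM in labelled KO against 2.67, 2.86 and 3.25 CPM in WT with PDGF-BB. Without PDGF-BB, Itgb2 stood at 1.24, 1.20 and 1.00 CPM in labelled KO against 3.15, 3.67 and 3.34 CPM in WT. Lcp1, the actin bundler L-plastin, stood at 2.90, 2.33 and 2.44 CPM in labelled KO against 7.77, 9.31 and 7.17 CPM in WT with PDGF-BB, and 4.97, 2.81 and 3.17 CPM in labelled KO against 10.0, 10.1 and 9.59 CPM in WT without it. Coro1a, an actin-binding protein of leukocytes, stood at 0.461, 0.389 and 0.50 CPM in labelled KO against 1.70, 1.53 and 1.16 CPM in WT with PDGF-BB, and 0.916, 0.535 and 0.779 CPM in labelled KO against 1.32, 1.48 and 1.73 CPM in WT without it. The groups of these 3 genes did not overlap in either treatment. Dock2, an activator of the GTPase Rac in blood cells, was the lowest of the 28, at 17 reads in all labelled KO against 51 in all WT libraries with PDGF-BB and 12 against 74 without it. The differences for Itgb2, Lcp1, Coro1a and Dock2 were -1.12, -1.35, -0.76 and -0.69 with PDGF-BB and -1.03, -1.26, -0.53 and -0.95 without, and all passed the test. That of Coro1a without PDGF-BB was not called by DESeq2 on recovered reads (adjusted p = 0.0666) or by edgeR without a filter (adjusted p = 0.121).

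Among leukocyte membrane proteins, Laptm5, a lysosomal membrane protein of blood cells, stood at 1.89, 1.95 and 2.00 CPM in labelled KO against 7.23, 7.18 and 6.19 CPM in WT with PDGF-BB. Without PDGF-BB, Laptm5 stood at 3.40, 2.27 and 3.34 CPM in labelled KO against 9.14, 11.0 and 9.23 CPM in WT. Ms4a7, a four-span membrane protein of mature macrophages, stood at 1.61, 0.973 and 1.19 CPM in labelled KO against 5.34, 4.45 and 2.94 CPM in WT with PDGF-BB, and 1.77, 0.869 and 1.33 CPM in labelled KO against 4.22, 4.12 and 4.23 CPM in WT without it. Cd53, a leukocyte tetraspanin, stood at 0.783, 0.632 and 0.50 CPM in labelled KO against 1.64, 1.79 and 1.41 CPM in WT with PDGF-BB, and 0.720, 1.14 and 0.667 CPM in labelled KO against 1.58, 1.37 and 1.91 CPM in WT without it. All 3 were lower in labelled KO in both treatments without overlap, with differences of -1.41, -1.20 and -0.68 with PDGF-BB and -1.44, -1.18 and -0.51 without. The Cd53 difference without PDGF-BB was not called by DESeq2 (adjusted p = 0.0828) or by edgeR without a filter (adjusted p = 0.147), under quantile normalization (adjusted p = 0.0573), or without replicate 3 of untreated labelled KO (adjusted p = 0.0562) or of untreated WT (adjusted p = 0.0631).

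Cybb and Ncf1 encode gp91phox, the catalytic subunit of the phagocyte NADPH oxidase, and p47phox, the cytosolic organiser of that enzyme. Cybb (ENSMUSG00000015340, chromosome X, 9435252 to 9487771, minus strand) stood at 1.38, 1.22 and 0.812 CPM in labelled KO against 4.13, 4.19 and 5.15 CPM in WT with PDGF-BB. Without PDGF-BB, Cybb stood at 2.88, 2.94 and 2.84 CPM in labelled KO against 9.64, 7.54 and 8.64 CPM in WT. Ncf1 stood at 0.369, 0.0973 and 0 CPM in labelled KO against 1.94, 2.46 and 1.41 CPM in WT with PDGF-BB. Without PDGF-BB, Ncf1 stood at 1.05, 0.468 and 0.779 CPM in labelled KO against 2.77, 2.75 and 2.26 CPM in WT. Neither overlapped between genotypes, and the differences were -1.37 (SE 0.13, adjusted p = 4.75e-06) and -1.34 (SE 0.18, adjusted p = 6.19e-05) with PDGF-BB and -1.30 (SE 0.13, adjusted p = 7.96e-06) and -1.04 (SE 0.18, adjusted p = 0.000494) without. In 1 labelled KO library with PDGF-BB Ncf1 had no read, which at this depth allows up to 3 reads and covers counting error only.

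**Figure D3:**
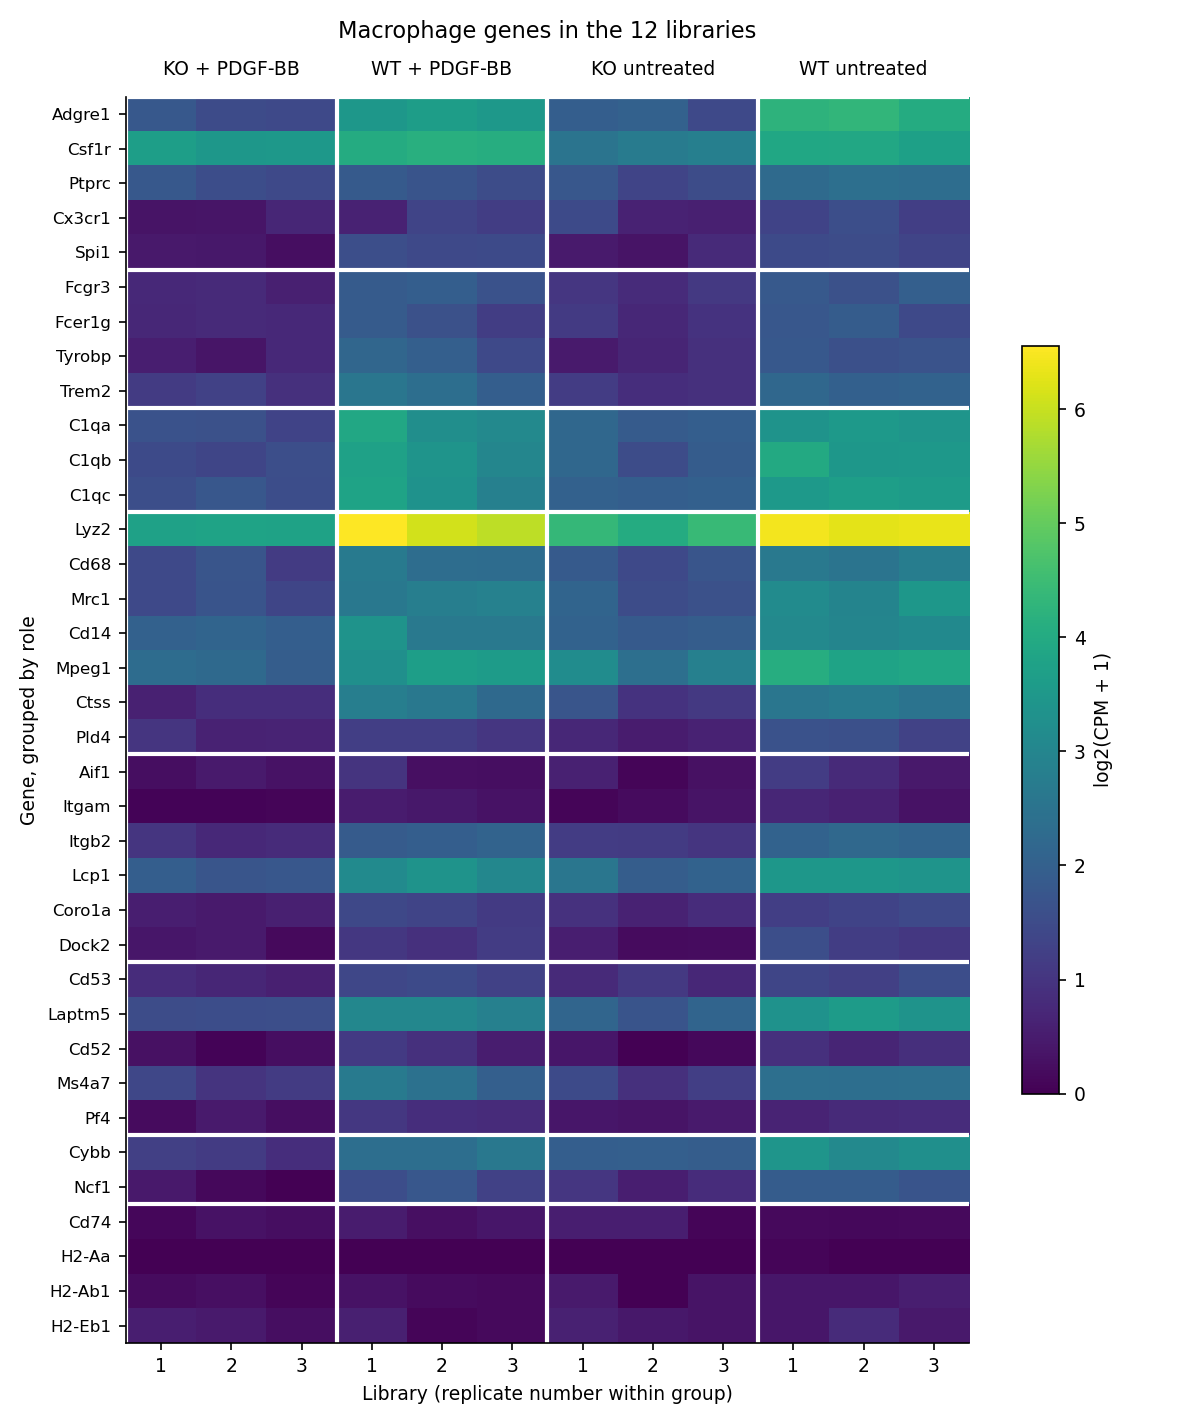
Log2(CPM + 1) of the 36 macrophage genes (rows, grouped by role) in the 12 libraries (columns, by group and replicate number). WT columns are brighter than labelled KO columns for most genes of each role except the 4 class II genes at the bottom, which are near 0 in every library, and Lyz2 is the brightest row, at up to 93.0 CPM.

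The 8 genes under the filter held few reads. Summed over the 3 libraries of a group, Pf4 (platelet factor 4, a chemokine also made by some tissue macrophages) had 14 reads in labelled KO against 42 in WT with PDGF-BB, and 16 against 36 without it. Cd52, a small glycoprotein of leukocytes, had 9 reads in labelled KO against 39 in WT with PDGF-BB, and 7 against 40 without it. Aif1, the calcium-binding protein IBA1, had 16 reads in labelled KO against 22 in WT with PDGF-BB, and 13 against 40 without it. Itgam, the alpha chain CD11b that pairs with Itgb2, had 3 reads in labelled KO against 16 in WT with PDGF-BB, and 8 against 24 without it. For Pf4 and Cd52 the CPM of the labelled KO and WT libraries did not overlap in either treatment, whereas Aif1 overlapped in both and Itgam in the untreated cells. In limma-trend with a filter at 0.5 CPM, Cd52 was called lower in labelled KO (adjusted p = 0.00826 with and 0.00789 without PDGF-BB). With that filter Pf4 was called lower with PDGF-BB (adjusted p = 0.00248) and not without it. Without a filter, limma-trend also called Pf4 (adjusted p = 0.00203 with and 0.0440 without PDGF-BB) and Itgam (adjusted p = 0.0353 and 0.0403) lower. On recovered reads without a filter, edgeR called Cd52 lower in both treatments and Pf4 with PDGF-BB (adjusted p = 0.0134). It did not call Pf4 without PDGF-BB, or Itgam in either treatment. Of the Itgam exons, 68.7% overlap a predicted gene on the same strand, so its reads may be split.

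The 4 genes of antigen presentation stayed near the floor in every library. The class II chains H2-Aa, H2-Ab1 and H2-Eb1 and the invariant chain Cd74, which load and display peptides on antigen-presenting cells, together had 7 to 17 reads a library in labelled KO and 6 to 19 in WT with PDGF-BB, and 11 to 21 in labelled KO and 13 to 23 in WT without it. H2-Aa had 1 read in all 12 libraries. Cd74 had 10 reads in labelled KO against 15 in WT with PDGF-BB, and 15 against 6 without it, the reverse order of the macrophage genes in untreated cells but at too few reads to read a difference from. The class II Y box letters CTGATTGG were in the windows of H2-Aa and H2-Eb1, 2 of 26 (7.69%), against 4.70% of all genes with a window.

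Levels between genes were compared as CPM per kilobase of exon, for the 15 tested genes whose exon length in the deposited table was within 1.25 times the exonic bases of GENCODE vM21. Lyz2 was first in every group, at 9.68 ± 0.141 in labelled KO and 55.5 ± 13.6 in WT with PDGF-BB and 14 ± 2.11 in labelled KO and 61.5 ± 3.36 in WT without it (CPM per kilobase, SD, n = 3 each). In untreated WT cells C1qb (10.8 ± 2.47) and C1qa (9.54 ± 0.723) followed within each other's spread, and then Adgre1 (5.39 ± 0.551), Cd14 (4.51 ± 0.231) and Cd68 (4.31 ± 0.428). Csf1r ranked number 2 of these 15 in labelled KO cells with PDGF-BB, at 2.28 ± 0.199 CPM per kilobase, and number 10 in untreated WT cells, at 2.87 ± 0.229.

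Few of these genes were called for PDGF-BB alone. In WT cells 4 of 28 were lower with PDGF-BB and none was higher, whereas of all genes tested 59.4% were called, 34.4% lower and 25% higher. These are 4884 and 3547 genes, against 4175 lower and 4189 higher under TMM scaling. The 4 were Cybb (4.49 ± 0.573 CPM with and 8.61 ± 1.05 CPM without PDGF-BB), Adgre1 (10.6 ± 0.763 and 17.4 ± 1.78 CPM), Ptprc (2.26 ± 0.356 and 4.04 ± 0.248 CPM) and Laptm5 (6.87 ± 0.584 and 9.81 ± 1.08 CPM; SD, n = 3 each). Their log2 changes were -0.81 (SE 0.13, adjusted p = 0.000193) for Cybb, -0.66 (SE 0.16, adjusted p = 0.00265) for Adgre1, -0.63 (SE 0.14, adjusted p = 0.00201) for Ptprc and -0.46 (SE 0.13, adjusted p = 0.00944) for Laptm5, and the libraries of each did not overlap. The median change of the 28 genes was -0.19, against -0.08 over all genes tested, and it turned to 0.027 under quantile normalization. Of the 28 genes 22 had a negative change, and the ratio of mean CPM had a median of 0.858. Over the 28 genes, the libraries of 8 did not overlap in the lower direction, against 36.4% of all genes tested, and those of 1, Csf1r, in the higher direction, against 25.9%.

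One library weighs on the WT response. Replicate 1 of WT with PDGF-BB lay 0.278 from its group mean in log2 root mean square over all genes, against 0.0954 to 0.196 for the other 11 libraries, and its deviations ran with exon length. Of the 14 shorter of the 28 genes (388 to 1641 bases in the deposited table), 12 were highest in this library of its group, with a median log2 excess of 0.45 over the other 2, and of the 14 longer genes 4 were, with a median of -0.07. Split by the exonic bases of GENCODE vM21 instead, 11 of the 14 shorter genes were highest in it, with a median of 0.42. Of the 14 longer ones 5 were, with a median of -0.019. Without replicate 1 of WT with PDGF-BB 8 of the 28 genes were lower with PDGF-BB in WT, the added ones being Lyz2 (-0.36, adjusted p = 0.00412), C1qc (-0.52, adjusted p = 0.0046), Cd14 (-0.42, adjusted p = 0.00794) and C1qb (-0.45, adjusted p = 0.0498). Over all genes, calls for this WT response ran from 7257 to 9018 with 1 library left out, against 8431 in the main fit. Under quantile normalization 3 of the 28 genes were lower in WT with PDGF-BB and 3 higher. Laptm5 lost its call there (adjusted p = 0.0779), and Csf1r (0.31, adjusted p = 0.0373), Spi1 (0.33, adjusted p = 0.0465) and Trem2 (0.45, adjusted p = 0.0229) were called higher. Without replicate 1 of untreated labelled KO, Mpeg1 (adjusted p = 0.0399) and Mrc1 (adjusted p = 0.0268) joined the 4, through the shared spread, for 6 in all. The genotype counts without replicate 1 of WT with PDGF-BB were 26 of 28 lower with PDGF-BB and 27 of 28 without PDGF-BB. With 1 library left out, all genes called for genotype ran from 3901 to 6192 with PDGF-BB and from 3662 to 7098 without it.

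In labelled KO cells 5 of 28 genes were lower with PDGF-BB and 1 was higher, while 42.4% of all genes tested were called, 24.8% lower and 17.6% higher. These are 3523 and 2502 genes, against 3071 lower and 2989 higher under TMM scaling. Among those called, Cybb had the largest decrease on the log2(CPM + 1) scale, with 1.14 ± 0.293 CPM with and 2.89 ± 0.0535 CPM without PDGF-BB, a change of -0.87 (SE 0.13, adjusted p = 0.000190). The others were Mpeg1 (3.51 ± 0.612 and 6.19 ± 1.92 CPM; -0.65 (SE 0.18, adjusted p = 0.0122)), Ncf1 (0.155 ± 0.191 and 0.765 ± 0.290 CPM; -0.61 (SE 0.18, adjusted p = 0.0129)), Lyz2 (12.7 ± 0.185 and 18.5 ± 2.77 CPM; -0.49 (SE 0.14, adjusted p = 0.0134)) and Laptm5 (1.94 ± 0.0548 and 3.00 ± 0.634 CPM; -0.43 (SE 0.13, adjusted p = 0.0186)). By the ratio of mean CPM, Ncf1 had the largest decrease of these 5, at 0.203 against 0.394 for Cybb. For each of these 5 the libraries did not overlap. The 28 genes had a median of -0.26, against -0.07 over all genes tested, and the libraries of 10 genes did not overlap in the lower direction, against 35.9% of all genes tested. Of the 28 genes 22 had a negative change, and the ratio of mean CPM had a median of 0.709. Replicate 1 of untreated labelled KO was the highest of its group for 20 of the 28 genes, and without it Cybb alone of the 5 passed the test (adjusted p of the other 4, 0.0547 to 0.0735). Calls were also lost without replicate 3 of untreated labelled KO (Lyz2, 0.0605; Laptm5, 0.0727), without replicate 1 of labelled KO with PDGF-BB (Laptm5, 0.0554) and without replicate 3 of it (Mpeg1, 0.0614; Ncf1, 0.0612; each an adjusted p). Without replicate 1 of WT with PDGF-BB, whose spread enters the shared fit, 10 of the 28 passed. Calls over all genes moved too, from 4799 to 8065 for this response with 1 library left out, against 6025 in the main fit.

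Csf1r was the 1 gene of the 28 called higher with PDGF-BB in labelled KO cells, at 10.7 ± 0.938 CPM, against 5.49 ± 0.652 CPM without it (SD, n = 3 each). All 3 libraries with PDGF-BB exceeded all 3 without, and the change was 0.86 (SE 0.11, adjusted p = 3.32e-05). In WT it stood at 16.0 ± 0.656 CPM with PDGF-BB and 13.5 ± 1.07 CPM without, a change of 0.23 (SE 0.11, adjusted p = 0.0814), again with no overlap. That WT change passed the test under TMM scaling (0.30, adjusted p = 0.0288), under quantile normalization (0.31, adjusted p = 0.0373), and on recovered reads in edgeR (adjusted p = 0.0244) and DESeq2 (adjusted p = 0.0330). The difference between the 2 responses, labelled KO minus WT, was 0.63 (SE 0.15, adjusted p = 0.0339), and Csf1r was the 1 of 28 genes past the threshold for it. Of all genes tested 3.92% were, 2.25% higher and 1.68% lower, which is 319 and 238 genes, or 261 and 298 under TMM scaling. Those 557 genes became 1548 without replicate 1 of WT with PDGF-BB and 894 without replicate 3 of it. They became 272, 282 and 309 without replicate 2, 1 or 3 of labelled KO with PDGF-BB, 335 and 326 without replicate 2 or 3 of untreated labelled KO, and 273, 345 and 311 without replicate 1, 2 or 3 of untreated WT. This call was lost in 10 of 22 alternative fits: without a filter (adjusted p = 0.0663), with the replicate number as a block (adjusted p = 0.0691), and with 1 library left out, which was any of the 3 of labelled KO with PDGF-BB, replicate 1 or 2 of untreated labelled KO, replicate 1 or 2 of untreated WT, or replicate 2 of WT with PDGF-BB (adjusted p = 0.0521 to 0.104). Csf1r made up 16.9 to 18.7% of the summed CPM of the 36 genes in labelled KO libraries with PDGF-BB, against 5.02 to 9.05% in the other 9 libraries.

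Reads of Csf1r cannot be fully told apart from those of Hmgxb3, since 15.1% of Csf1r exonic bases overlap it on the other strand and the strand setting of the counting is not given in the sources used here. Hmgxb3 stood at 46.5 ± 0.862 CPM in labelled KO and 42.5 ± 10.7 CPM in WT with PDGF-BB, and at 36.4 ± 0.300 CPM in labelled KO and 32.5 ± 1.57 CPM in WT without it, and did not differ between genotypes past the threshold (adjusted p = 0.385 and 0.406). It was higher with PDGF-BB in WT (0.35, adjusted p = 0.0438), and in labelled KO its change was 0.35 (adjusted p = 0.0597). Its part in the Csf1r values was not tested.

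Ptprc had an interaction of 0.69 (SE 0.20, adjusted p = 0.0812), as large as that of Csf1r but not past the threshold. It was called without replicate 1 of untreated labelled KO (0.80, adjusted p = 0.0438) and without replicate 1 of WT with PDGF-BB (0.77, adjusted p = 0.0288). In levels, WT cells without PDGF-BB stood at 3.78 to 4.28 CPM of Ptprc, and the 9 libraries of the other 3 groups at 1.54 to 2.61 CPM.

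**Figure D4:**
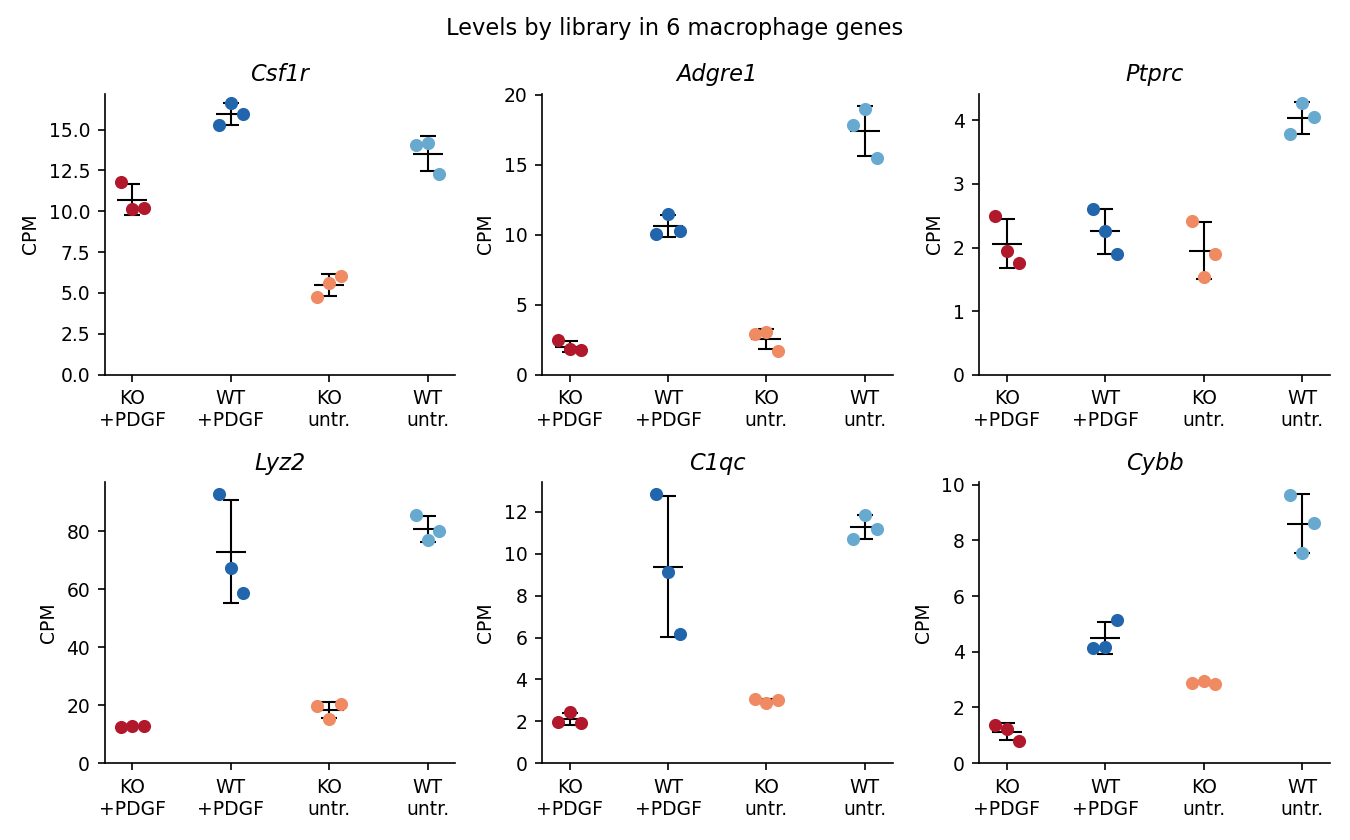
CPM of Csf1r, Adgre1, Ptprc, Lyz2, C1qc and Cybb in each library (points), by group, with the mean and SD of 3 libraries (lines). Csf1r is higher with PDGF-BB than without in labelled KO, Cybb lower in both genotypes, Ptprc stands apart in untreated WT, and Lyz2 and C1qc are spread widely in WT with PDGF-BB, where replicate 1 is the highest.

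Other genes of macrophages were mostly lower in labelled KO too. Of 57 further macrophage genes 29 were tested, and 23 were lower and 2 higher in labelled KO with PDGF-BB, 22 lower and 2 higher without it. The largest differences were in Marco, a scavenger receptor, at 0.0625 ± 0.108 CPM in labelled KO against 1.06 ± 0.608 CPM in WT with PDGF-BB and 0.188 ± 0.0184 against 2.10 ± 0.860 CPM without it (SD, n = 3 each), for log2 differences of -0.92 and -1.34, and in Nckap1l, Rac2 and Fcrls. Nckap1l, an actin regulator of blood cells, differed by -1.09 with and -1.20 without PDGF-BB, the blood cell GTPase Rac2 by -0.87 and -1.16, and the Fc receptor-like gene Fcrls by -1.11 and -0.66. Among the higher genes, named after their values were seen, were Inpp5d in both treatments (1.04 with and 0.71 without PDGF-BB) and Mertk without PDGF-BB (0.48). Mertk, a receptor for apoptotic cells that is not confined to macrophages, was the most abundant of the 57, at 50.9 ± 3.54 CPM in labelled KO and 55.7 ± 11.6 CPM in WT with PDGF-BB, and at 31.8 ± 3.20 CPM in labelled KO and 22.5 ± 1.63 CPM in WT without it. Summed, the 57 genes stood at 86.4 to 93.8 CPM in labelled KO and 127 to 136 CPM in WT with PDGF-BB, and at 75.2 to 89.1 CPM in labelled KO and 115 to 118 CPM in WT without it.

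Of 12 growth factors and attractants of macrophages 8 were tested, and 3 were higher and 2 lower in labelled KO with PDGF-BB, 4 higher and 3 lower without it. Il34, a ligand of Csf1r, was higher in labelled KO, at 6.40 ± 0.327 against 3.06 ± 0.324 CPM in WT with PDGF-BB and 4.72 ± 0.671 against 3.23 ± 0.586 CPM without it. Csf1, the other ligand, named after its values were seen, stood at 554 ± 5.54 CPM in labelled KO and 473 ± 26.1 CPM in WT with PDGF-BB, and at 524 ± 81.1 CPM in labelled KO and 732 ± 43.0 CPM in WT without it. It was lower in labelled KO without PDGF-BB (-0.49, adjusted p = 0.00176), and its response differed between genotypes by 0.72 (SE 0.14, adjusted p = 0.0113). Cd200, an inhibitory ligand for macrophages, and the chemokine Cxcl12 were higher in labelled KO in both treatments (1.90 and 1.42 with PDGF-BB, 1.58 and 1.29 without), and Cd47, the signal against being engulfed, was lower (-0.65 and -0.23).

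Marker lists of other cell types were set beside these values. All 9 tested endothelial markers were higher in labelled KO in both treatments, and their list of 10 summed to 655 to 675 CPM in labelled KO and 88.7 to 91.6 CPM in WT with PDGF-BB, and to 694 to 792 CPM in labelled KO and 105 to 111 CPM in WT without it. Of 9 tested fibroblast markers 6 were higher in both treatments and 1 was lower with PDGF-BB, and of 11 tested smooth muscle markers 9 were higher with PDGF-BB and 5 without. Fibroblast markers summed to 12299 to 12730 CPM in labelled KO and 4878 to 5479 CPM in WT with PDGF-BB, and smooth muscle markers to 5476 to 5641 CPM in labelled KO and 3164 to 3724 CPM in WT. Without PDGF-BB the fibroblast sums were 10596 to 10848 CPM in labelled KO and 4278 to 4418 CPM in WT, and the smooth muscle sums 4608 to 6437 CPM in labelled KO and 4648 to 5318 CPM in WT. Col1a1 and Col1a2 made up most of the fibroblast sums. With PDGF-BB their means were 6337 and 5888 CPM in labelled KO and 2493 and 2551 CPM in WT. Pdgfra, the 1 lower gene, and Dcn, which was not called, were named after their values were seen. With PDGF-BB Pdgfra stood at 35.7 ± 2.23 CPM in labelled KO and 68.3 ± 6.64 CPM in WT, and Dcn at 10.2 ± 0.836 and 9.93 ± 0.830 CPM. The part of these cell types in the difference of the macrophage genes was not tested. Of smooth muscle genes known from plaques 9 of 10 were tested, and 2 were higher and 4 lower in labelled KO with PDGF-BB, 2 higher and 5 lower without it. The largest differences were in the osteopontin gene Spp1 and the transcription factor gene Klf4 (-2.46 and -1.19 with PDGF-BB, -2.11 and -1.32 without), and in the lipoprotein lipase gene Lpl and the galectin gene Lgals3 (-1.09 and -0.97 with PDGF-BB, -0.71 and -0.99 without), all lower in labelled KO. The 2 higher genes, named after their values were seen, were Apoe (0.57 with PDGF-BB, 0.77 without) and Abcg1 (0.79 and 0.49).

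Markers of T, NK and B cells and of neutrophils were at or near the floor. Lists of 10 T and NK cell, 8 B cell and 10 neutrophil markers summed to at most 1.17 CPM in any library, no gene of them was tested, and Cd3d, Cd3g, Cd2, Ms4a1, S100a9, Ly6g and Mpo had no read in any library. The 8 dendritic cell genes summed to 7.47 to 13.9 CPM a library over all groups. Most of this was Zbtb46, a transcription factor gene named after its values were seen, at 8.66 ± 0.943 CPM in labelled KO and 8.53 ± 1.37 CPM in WT with PDGF-BB, and 10.4 ± 1.54 CPM in labelled KO and 9.67 ± 0.359 CPM in WT without it. Cd209a and Siglech had no read, and the 1 dendritic cell gene that differed, Clec9a, was higher in labelled KO (0.87 with PDGF-BB, 0.83 without). The 8 mast cell and platelet genes summed to 35.8 to 38.0 CPM in labelled KO and 9.56 to 10.8 CPM in WT with PDGF-BB, and to 39.5 to 44.0 CPM in labelled KO and 13.1 to 14.8 CPM in WT without it. Of these 8 genes 2 were tested, and Kit, a receptor that other cells carry too, was higher in labelled KO, at 33.2 ± 1.52 CPM against 6.71 ± 0.709 CPM in WT with PDGF-BB and 35.4 ± 2.94 against 8.32 ± 0.664 CPM without it (log2 differences of 2.15 and 1.96), while Ppbp and Tpsb2 had no read. Of 8 further class II genes 5 were tested, and H2-DMb1, a chaperone of peptide loading, was the 1 that differed, being higher in labelled KO (0.86 with PDGF-BB, 1.09 without).

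**Figure D5:**
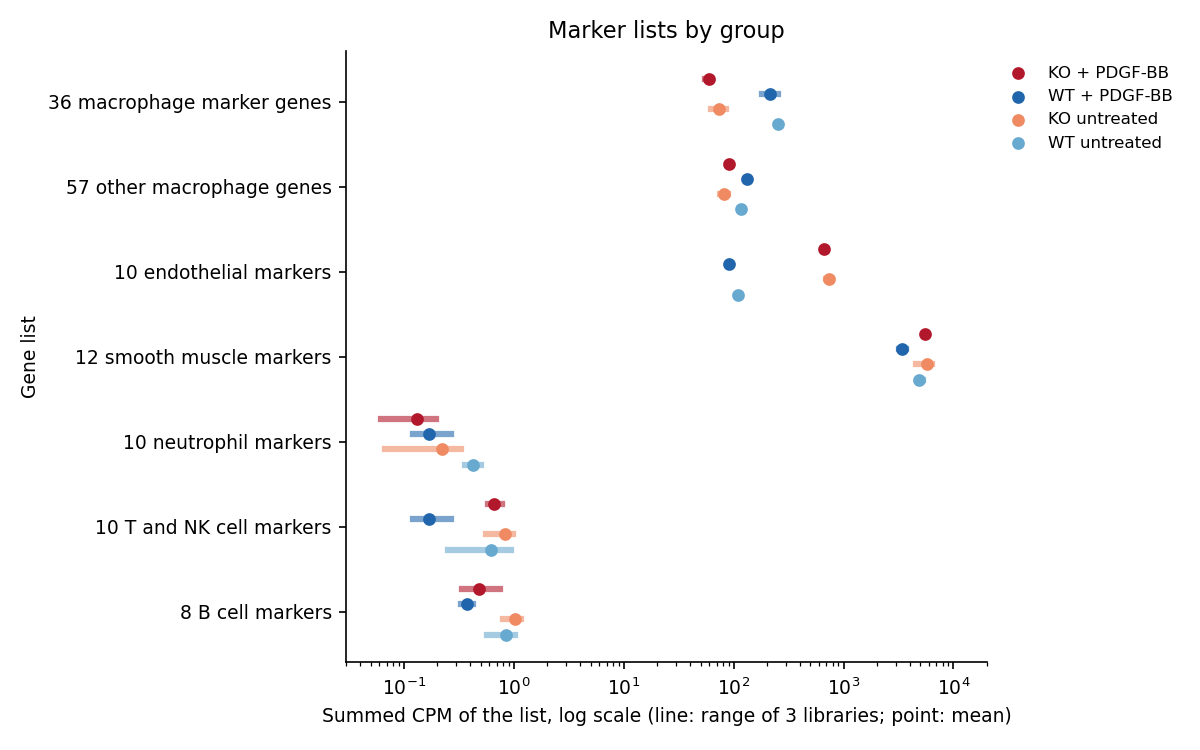
Summed CPM of marker lists on a log axis (points are means and lines the range of 3 libraries), one colour per group. The 36 macrophage genes stand lower in labelled KO and the endothelial list higher, while the lists of neutrophils, T and NK cells and B cells stay at or under 1.17 CPM in all groups.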

How the data were processed

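Messenger RNA of mouse vascular smooth muscle cells was sequenced as 12 libraries with a stranded kit, per the labels' protocols. The submitters' processing notes name HISAT2, HTSeq and the build mm10. Versions and the strand setting are not given in the sources used here. The authors deposited 1 value per gene and library, which is CPM: each library sums to 1000000 and values are not divided by length, although the table is named for FPKM. Dividing by the worth of 1 read gave whole reads for 100% of values (within 0.001 read) and library totals of 14953807 to 21698488 reads, so 1 read was at most 0.0669 CPM. The design, written for CPM or FPKM, was kept.

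The test, for genes reaching 1 CPM in 3 or more libraries, was limma-trend (R 4.3.3, limma version 3.58.1) fitted to log2(CPM + 1) values of all 12 libraries with a mean for each group, 2-sided, with Benjamini-Hochberg adjustment over 14202 genes and a threshold of 0.05. Fold changes are on the log2(CPM + 1) scale, which understates changes of low genes. The steps were tested on simulated data. The alternatives were the recovered reads in edgeR 4.0.16 and DESeq2 1.42.0, other scalings, filters and pseudocounts, a replicate block and leaving out each library. The groups of each library came from the labels. The members and all lists were chosen with earlier results of these data known. Values in every library are given for members with a mean of at least 1 CPM, and other members by reads. Outside the members, Tigar, defining markers at or near 0 and up to 4 called genes a list with the largest genotype difference are named, and further genes are said to be chosen after their values were seen. Motif windows and sequences came from RefSeq. Protein sequences were not used here. One gene of the further macrophage list is not reported here by name.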

Additional observations from a re-analysis of the deposited data

Results flagged for a closer look

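Of the 28 tested macrophage genes 1 (3.57%) passed the test of the difference between the responses, no more than the 3.92% of all genes tested. The PDGF-BB response of Csf1r was 0.86 in labelled KO and 0.23 in WT on the log2(CPM + 1) scale. The difference of 0.63 (SE 0.15, adjusted p = 0.0339, limma) passed the threshold. In labelled KO and in WT alike, all 3 libraries with PDGF-BB stood above all 3 without it. The call was lost in 10 of 22 alternative fits and kept by edgeR and DESeq2 on recovered reads.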

How the results depend on the processing

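The genotype differences kept their direction and their call in 575 of 575 alternative values of the 25 called macrophage genes with PDGF-BB and in 614 without it, with 7 lost. These values are refits of the same 12 libraries for listed genes that were already called. They describe dependence on the settings and are not independent results. Values that reversed were those of Ptprc with PDGF-BB, which was not called, at 0.035 by edgeR without a filter and 0.015 by DESeq2. For labelled KO minus WT without PDGF-BB the median of the macrophage genes moved to -1.31 with a pseudocount of 0.5, -1.64 with 0.1, -1.54 by edgeR, -1.41 by edgeR without a filter and -1.54 by DESeq2. With PDGF-BB it moved to -1.43, -1.68, -1.67, -1.59 and -1.66 under the same settings and to -1.07 without a filter, and fitting only the groups compared called 3438 genes. The summed ratio with PDGF-BB was 0.328 without Lyz2. The median response to PDGF-BB in labelled KO moved to -0.32 and -0.45 with pseudocounts of 0.5 and 0.1, -0.17 without a filter, -0.069 under quantile normalization, -0.43 by edgeR, -0.37 by edgeR without a filter and -0.44 by DESeq2, and that in WT to 0.027 under quantile normalization. The median difference between responses moved to -0.20 with a pseudocount of 0.1, -0.27 by edgeR, -0.23 by edgeR without a filter and -0.26 by DESeq2. The difference between responses was called for 371 genes without a filter, 948 by edgeR without a filter and 905 by DESeq2, and for 0 of the macrophage genes without a filter by limma. With the filter, edgeR on recovered reads called 3936 genes for genotype without PDGF-BB and 4142 with it, and 27 and 25 of the macrophage genes.

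With 1 library left out, 26 to 28 macrophage genes were called for genotype without PDGF-BB and 25 to 26 with it, 4 to 8 for PDGF-BB in WT, 2 to 10 in labelled KO, and 0 to 2 for the difference between responses. The medians ran from -1.16 to -1.04, -1.25 to -1.12, -0.29 to -0.07, -0.35 to -0.19 and -0.20 to 0.025 in the same order, and all genes called from 3662 to 7098, 3901 to 6192, 7257 to 9018, 4799 to 8065 and 272 to 1548. The lowest and highest counts for the difference between responses, 272 and 1548, came without replicate 2 of labelled KO with PDGF-BB and without replicate 1 of WT with PDGF-BB. The summed ratios ran from 0.256 to 0.301 with PDGF-BB and 0.272 to 0.320 without it.

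Libraries with the same replicate number did not pair. With the number as a block 27 and 26 of the 28 macrophage genes were called for genotype without and with PDGF-BB. For PDGF-BB 5 and 7 were called in WT and labelled KO, and 0 for the difference between responses. Over all 14202 genes tested, that fit called 4488 and 4938 for genotype without and with PDGF-BB. It called 8200 and 5715 for PDGF-BB in WT and labelled KO, and 417 for the difference between responses. Depth limits the 8 genes that did not pass the main filter, and a count of 0 in a library allows up to 3 reads.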
